A study of Drosophila melanogaster with 6 samples.

Results

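The 26S proteasome degrades proteins marked with ubiquitin chains. Its regulatory particle caps the proteolytic core particle. The base of the cap holds a ring of Rpt ATPases, which unfold substrates and feed them into the core, and the large scaffold subunits Rpn1 and Rpn2. The lid holds further Rpn subunits and the subunit that cuts ubiquitin chains off the substrate. Usp proteins are ubiquitin-specific cysteine proteases, the largest family of deubiquitinases, and remove ubiquitin from many other proteins. Genes of both kinds were taken by their current fly symbols, which begin with Rpn, Rpt or Usp and a digit. Of 38 genes with such symbols in the RefSeq table, 12 were measured under a name, and 11 of these had values on all 6 arrays and were tested among 7201 features. The 11 are 6 of 23 regulatory particle genes (Rpn1, Rpn2, Rpn3, Rpn6, Rpt5 and Rpt4R) and 5 of 15 Usp genes (Usp1, Usp7, Usp8, Usp15-31 and Usp20-33). Usp47 lacked a value on 1 array. The choice used names and the presence of values, not the ratios, although earlier results of these data were known when it was made. The other 26 genes with such symbols were not analysed here.

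The arrays compared SL2 with Kc167, 2 established Drosophila melanogaster lines derived from embryos. SL2 is held to be of male and Kc167 of female origin, and both have properties of blood cells. SL2 cells grew in CCM3 medium with gentamicin, and Kc167 cells grew in a Schneider medium with fetal bovine serum and gentamicin. Both were untreated dense cultures, each line is a single established line, and line and medium cannot be told apart. On every array, cDNA of the lines competed for the same spots of cDNA clones. SL2 carried Cy5 and Kc167 Cy3 on 3 arrays, called flipped, and Kc167 carried Cy5 and SL2 Cy3 on the other 3. Arrays with the same replicate number were averaged over the orientations, which gave n = 3.

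All values are log2 ratios of SL2 over Kc167, so a positive value means more transcript in SL2. That direction is likely, because every title puts SL2 first, but no label defines the ratio. If it ran the other way, every sign here would be reversed. A base of 2 was assumed for the logarithm, which no label names. Ratios carry no level of expression in either line. The labels do not name separate cultures, so the p-values measure a spread that may be technical. A gene passed if its adjusted p from limma, adjusted by Benjamini-Hochberg across the 7201 features, was under 0.05. The SL2 side means a positive ratio and the Kc167 side a negative one.

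Between the lines, 7 of the 11 genes passed, all of them higher in SL2, and none passed as lower in SL2. The 7 are Usp20-33, Usp15-31, Usp1, Rpn2, Rpt5, Rpn6 and Rpn3, and their ratios ran from 0.19 to 0.52, which is 1.14-fold to 1.43-fold. No gene of the 11 reached 2-fold, a size at which 6.53% of all features passed. The share of genes that passed, 63.6%, lay near the 60.2% of all features and the 59.3% of the 2216 named genes. On the SL2 side alone it was 63.6% of the 11 genes, against 28.4% of all features and 30.5% of the named genes. On the Kc167 side it was 0 genes, against 31.8% of all features and 28.7% of the named genes. An unadjusted limma p under 0.05, which uses the same p-values and is no separate check, gave 7 genes higher and 0 lower in SL2. The median ratio of the 11 genes was 0.23, against -0.02 over all features and 0.02 over the named genes. The median size without sign was 0.23 for the 11 genes and 0.25 over all features.

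**Figure D1:**
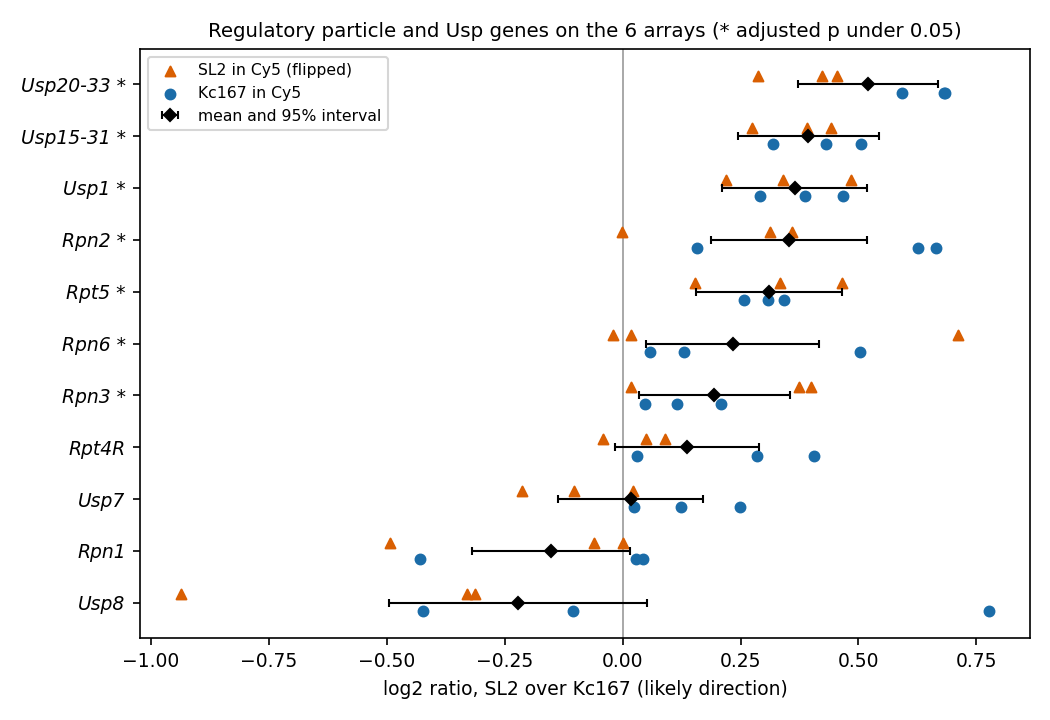
Log2 ratio of SL2 over Kc167 on the horizontal axis for the 11 genes down the page, with triangles for the 3 flipped arrays, circles for the 3 arrays with Kc167 in Cy5, and a diamond with its 95% interval from limma for the mean of the 3 replicates. A star marks the 7 genes that passed; their intervals lie above 0, from 0.03 at the lowest bound for Rpn3 to 0.67 at the highest for Usp20-33, while the points of Usp8 run from -0.94 to 0.78.

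In the base of the regulatory particle, the scaffold gene Rpn2 and the ATPase gene Rpt5 were higher in SL2. Rpn2, whose product carries the ubiquitin receptor Rpn13, had log2 ratios of 0.00, 0.36 and 0.31 on the flipped arrays and of 0.63, 0.66 and 0.16 on the arrays with Kc167 in Cy5. Of these 6 values 5 were above 0, and the flipped array of replicate 1 was at about 0. The mean was 0.35 ± 0.07 (SE, n = 3; 1.28-fold; limma adjusted p = 0.0023). In the flipped arrays alone Rpn2 had 0.22 and did not pass (limma adjusted p = 0.099). Rpt5, an ATPase whose tail helps to open the gate of the core particle, had 0.47, 0.15 and 0.33 on the flipped arrays and 0.34, 0.26 and 0.31 with Kc167 in Cy5. Every array was above 0 and the orientations overlapped. Its mean was 0.31 ± 0.07 (SE, n = 3; 1.24-fold; limma adjusted p = 0.0033).

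Rpn1, the other large scaffold subunit of the base and a docking site for ubiquitin shuttle proteins, did not pass. It had -0.49, 0.00 and -0.06 on the flipped arrays and 0.04, 0.03 and -0.43 with Kc167 in Cy5. A low value stood in each orientation, at replicate 1 on the flipped arrays and at replicate 3 on the others, and the remaining arrays lay near 0. The mean was -0.15, with a 95% interval from -0.32 to 0.01 (limma adjusted p = 0.10). Without replicate 2 it was -0.24 with a limma adjusted p of 0.036, so the call turns on that replicate. The 95% intervals of Rpn1 and Rpn2 do not overlap, although both subunits belong to the base; the difference between these genes was not tested.

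In the lid, Rpn3 and Rpn6 had small ratios that just passed. Rpn3 encodes a scaffold subunit of the lid. It had 0.02, 0.37 and 0.40 on the flipped arrays and 0.12, 0.05 and 0.21 with Kc167 in Cy5. All 6 values were above 0, and 3 of them were at 0.12 or less. The mean was 0.19 ± 0.07 (SE, n = 3; 1.14-fold; limma adjusted p = 0.038). Without replicate 2 the limma adjusted p was 0.11 (mean 0.19), and without replicate 3 it was 0.26 (mean 0.14).

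Rpn6 encodes the lid subunit that clamps the lid to the core particle. It had 0.71, 0.02 and -0.02 on the flipped arrays and 0.13, 0.06 and 0.50 with Kc167 in Cy5. The arrays split into a pair at 0.50 or more and 4 at 0.13 or less. The mean was 0.23 ± 0.08 (SE, n = 3; 1.18-fold; limma adjusted p = 0.031). On the flipped arrays of replicates 1 and 2, only 1 of the 2 spots of Rpn6 had a value. Rpn6 passed in 6 of 16 alternatives, and without the flipped array of replicate 1 the ratio was 0.11 (limma adjusted p = 0.23). Without replicate 1 it was 0.14 (limma adjusted p = 0.19). Without replicate 3 the limma adjusted p was 0.073.

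Rpt4R, named as a relative of the ATPase gene Rpt4 and known for expression in testis, did not pass. It had 0.09, -0.04 and 0.05 on the flipped arrays and 0.03, 0.28 and 0.41 with Kc167 in Cy5. The 2 highest values were both from arrays with Kc167 in Cy5. The mean was 0.14, with a 95% interval from -0.02 to 0.29 (limma adjusted p = 0.11). Of 24 genes listed as testis and germline markers, 2 were tested: betaTub85D, the gene of the testis beta-tubulin, had 1.26 and dj had -0.08, which did not pass. How the ratio of Rpt4R relates to those of such genes was not tested.

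Of the Usp genes, Usp20-33, Usp15-31 and Usp1 were higher in SL2. Usp20-33 is named for the human deubiquitinases USP20 and USP33, which are known to bind the von Hippel-Lindau protein. It had 0.29, 0.46 and 0.42 on the flipped arrays and 0.59, 0.68 and 0.68 with Kc167 in Cy5. All 6 were above 0, and the flipped arrays lay below the others without overlap. The mean was 0.52 ± 0.07 (SE, n = 3; 1.43-fold; limma adjusted p = 9.4e-05), the highest of the 11. It was the gene measured by 2 clones, which gave 0.48 and 0.56 when each was fitted on its own, and both passed.

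Usp15-31 had 0.27, 0.39 and 0.44 on the flipped arrays and 0.43, 0.32 and 0.51 with Kc167 in Cy5. These 6 values spanned 0.23, the narrowest range among the 11 genes, and the orientations overlapped. The mean was 0.39 ± 0.07 (SE, n = 3; 1.31-fold; limma adjusted p = 0.00060). Usp1, whose human counterpart removes ubiquitin from the DNA repair proteins PCNA and FANCD2, had 0.48, 0.34 and 0.22 on the flipped arrays and 0.39, 0.47 and 0.29 with Kc167 in Cy5. Again all 6 were above 0 and the orientations overlapped. Its mean was 0.36 ± 0.07 (SE, n = 3; 1.29-fold; limma adjusted p = 0.0012).

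Usp7 and Usp8 did not pass. Usp7 acts on ubiquitinated histone H2B in flies and on the p53 pathway in human cells. It had -0.21, -0.10 and 0.02 on the flipped arrays and 0.02, 0.25 and 0.12 with Kc167 in Cy5. The orientations lay on either side of 0 but touched at 0.02. The mean was 0.02, with a 95% interval from -0.14 to 0.17 (limma adjusted p = 0.85), so a difference of more than 0.17 in size lay outside this interval.

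Usp8, an endosomal deubiquitinase that acts on signalling receptors such as Frizzled and Smoothened in flies, had the widest spread of the 11 genes. It had -0.94, -0.33 and -0.31 on the flipped arrays and -0.10, 0.78 and -0.42 with Kc167 in Cy5. Of these 6 values 5 were below 0, and replicate 2 with Kc167 in Cy5 stood 0.88 above the next highest array. The SD of its 3 replicates was 0.39, at the 99.2 percentile of all features. The mean was -0.22, with a 95% interval from -0.49 to 0.05 (limma adjusted p = 0.14). Without replicate 2 it was -0.44 and passed on the Kc167 side (limma adjusted p = 3.7e-05), as it did in the flipped arrays alone (-0.53; limma adjusted p = 0.011). On the 3 arrays where Kc167 carried Cy5, taken alone, it was 0.08 and did not pass (limma adjusted p = 0.75).

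Usp47, a deubiquitinase gene with a value on 5 arrays, had 0.20, 0.27 and 0.15 on the flipped arrays and -0.19 and 0.16 on the arrays of replicates 1 and 3 with Kc167 in Cy5. Replicate 2 was dropped where values were needed in only 2 replicates, which gave a mean of 0.08 with a 95% interval from -0.12 to 0.28 (limma adjusted p = 0.47 over 7563 features). It is not among the 11 genes counted here.

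Ordered by ratio, the 11 genes ran Usp20-33, Usp15-31, Usp1, Rpn2, Rpt5, Rpn6, Rpn3, Rpt4R, Usp7, Rpn1 and Usp8. For 6 of the 10 neighbouring pairs in this order the difference was no larger than the SD of the 3 replicate differences. Among these were all steps between neighbours from Usp15-31 down to Rpn3; pairs that are not neighbours were not compared. Usp20-33 exceeded Usp15-31 by 0.13 ± 0.08 (SD, n = 3) and did so in all 3 replicates. With 3 replicates, the smallest two-sided p of an exact sign-flip test is 0.25. Compared with all features, Usp20-33 stood at the 88.9 percentile of signed ratios and Usp8 at the 29.0 percentile, and all 11 lay between the 10th and the 90th percentile (-0.57 and 0.55).

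**Figure D2:**
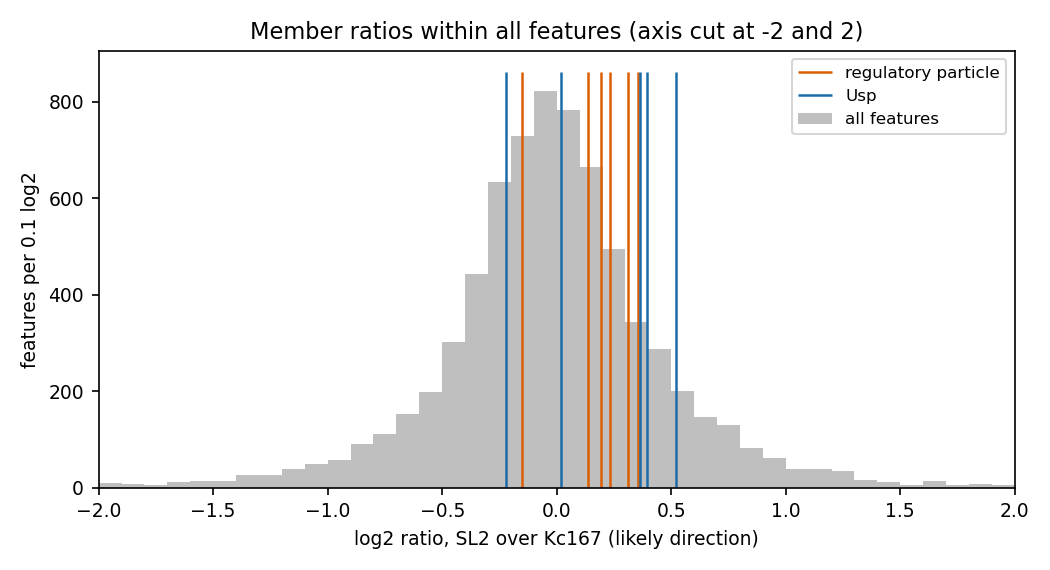
Histogram of the log2 ratio of SL2 over Kc167 (horizontal axis, limited to -2 to 2) with the number of features per bin of 0.1 (vertical axis) for all 7201 features, and lines at the 6 regulatory particle genes and the 5 Usp genes. The lines stand between -0.22 and 0.52, and 9 of 11 lie above 0.

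Grouped by symbol, 4 of 6 regulatory particle genes and 3 of 5 Usp genes passed, all on the SL2 side. These shares, 66.7% and 60%, lay near the 60.2% of all features that passed on either side. On the SL2 side alone, 28.4% of all features and 30.5% of the named genes passed. Without Rpt4R, named as a relative of Rpt4 and itself not passing, 4 of 5 regulatory particle genes passed, or 80%. Deubiquitinases without a Usp symbol are not counted here. Among those tested, CYLD passed on the SL2 side (0.53) and scny on the Kc167 side (-0.40). The median ratio was 0.21 for the regulatory particle genes and 0.36 for the Usp genes. The number of genes above 0 was 7, 8 and 8 of 11 on the flipped arrays and 10, 11 and 9 of 11 with Kc167 in Cy5. The median of the 11 genes was 0.09, 0.15 and 0.22 on the flipped arrays and 0.13, 0.28 and 0.29 with Kc167 in Cy5. The median of all features on the same arrays lay between -0.03 and 0.00. Values above 0 on all 6 arrays were found for 5 of the 11 genes (Usp20-33, Usp15-31, Usp1, Rpt5 and Rpn3), against 23.1% of all features. The median gap between the 2 spots of a clone ran from 0.05 for Rpt4R to 0.24 for Usp8 and 0.27 for Rpn6, against 0.14 over all clones. For Usp8 and Rpn6 this gap was about as large as the ratio itself.

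None of the 11 genes differed between the dye orientations by limma on the differences within the 3 replicate numbers, with 9.46% of all features passing this test. At an unadjusted p under 0.05 there was 1, Usp8, with a difference of -0.61 ± 0.22 (SE, n = 3; limma adjusted p = 0.10). Usp20-33 and Rpn2 followed with -0.26 each, and Usp7 had -0.23. The difference was below 0 for 8 genes and above 0 for 3. For Usp7 and Usp8 the orientation means had opposite signs, as for 26% of all features.

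**Figure D3:**
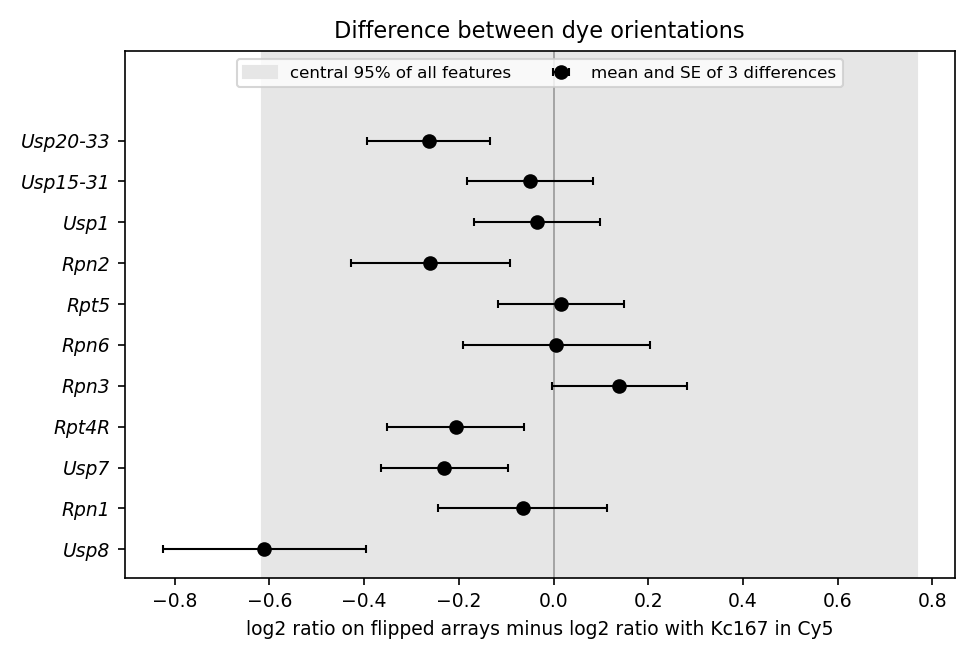
Mean of the 3 differences (log2 ratio on the flipped array minus that with Kc167 in Cy5, horizontal axis) with its SE for the 11 genes down the page, over a band that holds the central 95% of all features. The band runs from -0.61 to 0.77; Usp8 sits at its lower edge and the other 10 genes lie between -0.26 and 0.14.

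Genes that work with the proteasome passed in both directions. Each list was formed by gene names and is described by its counts alone. The lists are small, and no list was tested as a group or against another. Of 7 core particle genes with values on all arrays, which encode the proteolytic barrel or relatives of its subunits, 5 passed as higher and 1 as lower in SL2, or 85.7% in all, against 60.2% of all features. Prosbeta7 had 0.77 and Prosalpha4T1, a testis form, had 0.70. Prosbeta5R1, named as a relative of a core subunit gene, had -0.40. The list median was 0.29. On the 3 arrays where Kc167 carried Cy5, taken alone, 2 core particle genes passed on each side. In that fit 51.6% of all features passed on either side. Of 25 names listed for genes that regulate or assist the proteasome, 4 were tested, of which 3 passed as lower in SL2 and none as higher, against 31.8% and 28.4% of all features. Keap1, the adaptor that directs the activator CncC of stress and proteasome genes to degradation, had -0.87 ± 0.07 (SE, n = 3; limma adjusted p = 3.7e-06). The shuttle protein gene rngo had -0.41. Pomp, the gene of the chaperone that matures the core particle, had -0.38, and its ratio depended on the dye orientation. Hrd3, a component of the ligase that clears proteins from the endoplasmic reticulum, had 0.04 and did not pass.

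Of 27 names listed for other deubiquitinases and related enzymes, set apart by gene name rather than by protease family, 6 were tested. Of these, 33.3% passed, against 60.2% of all features. CYLD, which trims ubiquitin chains in immune signalling, was on the SL2 side with 0.53 and scny on the Kc167 side with -0.40. The other 4 did not pass: Uch-L5, a deubiquitinase that binds the regulatory particle, had 0.11, Duba 0.08, puf 0.08 and CSN5, the catalytic subunit of the lid-like COP9 signalosome, 0.07. CSN5 was counted in this list and again with the cullins and COP9 genes. Of 43 names listed for ubiquitin activation and conjugation, 10 were tested: morgue passed on the SL2 side (0.25), and Ubc6, vih and CG2574 passed on the Kc167 side. These are 40% of the 10, against 60.2% of all features. Ubc6, the gene of the fly counterpart of the yeast conjugating enzyme Rad6, had -0.92 ± 0.07 (SE, n = 3; limma adjusted p = 3.2e-06). The mitotic conjugating enzyme gene vih had -0.54 and CG2574 had -0.39. The cullin genes Cul2 (-0.63) and Cul3 (-0.24), which encode ligase scaffolds, passed on the Kc167 side. In their list 66.7% of the 3 tested genes passed. The medians were 0.08 for the other deubiquitinases, 0.10 for the conjugation genes, -0.24 for the cullins and COP9 genes, of which 3 were tested, and -0.40 for the regulators.

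**Figure D4:**
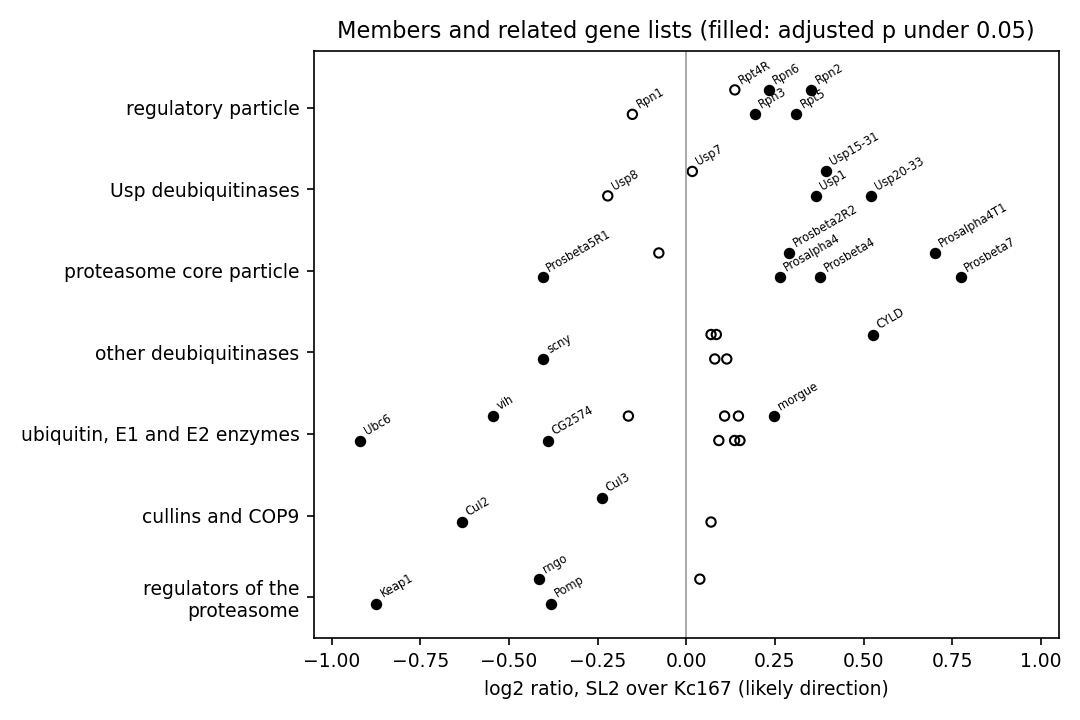
Log2 ratio of SL2 over Kc167 (horizontal axis) for the 6 regulatory particle genes, the 5 Usp genes and the tested members of 5 related lists down the page; filled points passed by limma. The regulatory particle, Usp and core particle genes that passed lie to the right of 0 except Prosbeta5R1, named as a relative of a core subunit gene, at -0.40. The cullin and regulator genes that passed lie to the left, down to Keap1 at -0.87.

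Of the hemocyte markers, which describe the cell type both lines resemble, 4 of 15 were tested. NimC1 (0.80) and Pxn (1.65) passed on the SL2 side, and Ppn (-1.14) and Pvr (-0.43) on the Kc167 side. All 4 thus passed, against 60.2% of all features. Since the arrays give ratios, neither the presence of a marker in a line nor a share of cells could be read from them, and fewer cells of a type and less RNA per cell cannot be told apart.

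The 11 genes lie on 5 chromosome arms: Usp7 on X, Rpn3 on 2L, Rpn6, Usp20-33 and Usp15-31 on 2R, Rpn1 and Rpt4R on 3L, and Rpn2, Rpt5, Usp1 and Usp8 on 3R. Most were far apart in gene order. The closest pair was Rpn2 and Usp1, with 14 genes between them, and their ratios were 0.35 and 0.36. The 5 nearest tested genes on each side of Rpn2 and of Usp1, which include the other member of the pair, had medians of -0.13 and -0.14. The sets share further genes, so these medians are not independent. The farthest of the 10 neighbours lay 24 genes from Rpn2 and 35 from Usp1. Over all 11 genes this reach ran from 18 to 90 genes. Around Rpn2, 3 of these 10 were higher and 4 lower in SL2, and around Usp1, 2 were higher and 3 lower. They ran from CG31445 at -0.98 to Cnx99A at 1.11, and both of these are neighbours of Rpn2 and of Usp1. The 10 neighbours of Usp20-33, chosen alike, had a median of -0.10, with 2 of 10 higher and 5 lower in SL2. Around Rpn6 and Usp15-31 the medians were 0.32 and 0.19. In both cases 6 of 10 neighbours were higher in SL2, while 3 and 2 were lower. Of the 2216 named genes, 30.5% passed as higher and 28.7% as lower in SL2. Whether any of these neighbour counts departs from those shares was not tested. Of the 7 genes that passed, 4 had a neighbour median above 0 and 3 below 0.

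**Figure D5:**
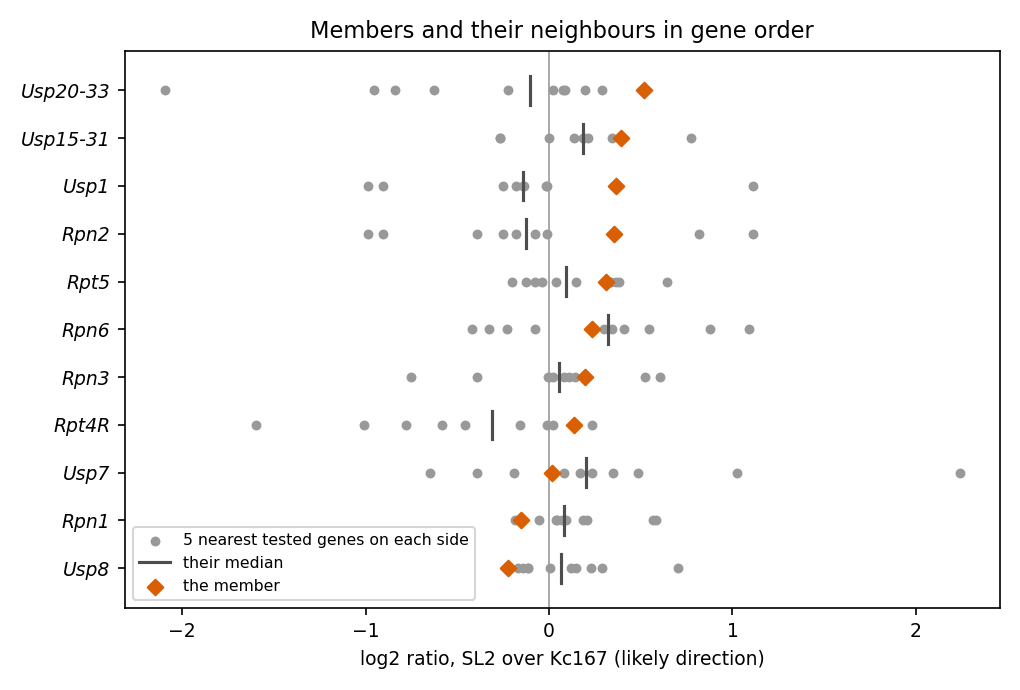
Log2 ratio of SL2 over Kc167 (horizontal axis) for each of the 11 genes (diamond), the 5 nearest tested named genes on each side of it in gene order on the same arm (grey points) and their median (bar), with the 11 genes down the page. Rpn2, Usp1 and Usp20-33 stand above 0 while their neighbour medians stand between -0.14 and -0.10.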

How the data were processed

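Each deposited value is the log ratio of a spot, taken here as log2. Per the labels, the authors computed it after normalisation; how, on which base and in which direction is not given in the sources used here. Intensities were not used, so dim spots could not be filtered. Spots of a clone were averaged, then clones of a gene, with symbols updated by Entrez identifier to the RefSeq table of Release 6 plus ISO1 MT, used for names, arms and gene order. Arrays held values for 15104 to 16844 of 16896 spots. Precision is limited by the number of arrays. Columns of opposite dye orientation correlated at 0.64 to 0.83 across features, so no sign was changed.

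The mean of 3 replicates was tested against 0 with limma 3.58.1 in R 4.3.3 (lmFit, eBayes), two-sided; SE is limma's moderated standard error. Deviations of same-numbered arrays from their orientation means correlated at -0.07, 0.11 and -0.10, so the numbers are not shown to pair the arrays. The test was checked on simulated data with 7201 features, of which 50 were changed at each of the sizes 0.25, 0.5, 1 and 2. Of the 50 changed by 0.25, 38% passed, and all 50 changed by 0.5 did. Far fewer features were changed there than the 60.2% that passed in the data, which makes the adjustment stricter. The 38% need not hold for these arrays. Among unchanged features 15 passed. A gene with a small ratio that did not pass is not shown to be unchanged. All genes matching the name rule are named, and of each other list up to 4 genes that passed; genes named as not passing fall outside this rule, chosen once values were known. Members and lists were chosen with earlier results of these data known. Alternatives covered the replicate block, orientations, normalisation, printing order, clones, missing values, variance model and replicates left out.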

Additional observations from a re-analysis of the deposited data

Results flagged for a closer look

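None of the 11 regulatory particle and Usp genes differed between the dye orientations after adjustment, but 6 genes of the related lists did by limma, as did 9.46% of all features. The differences are log2 ratios on the flipped arrays minus those with Kc167 in Cy5. Pomp had 0.58 (-0.09 on the flipped arrays and -0.67 with Kc167 in Cy5), and Pxn had -1.02 (1.14 on the flipped arrays and 2.16 with Kc167 in Cy5). Both kept their sign in both orientations. Prosbeta4R2 had 0.66, Duba 0.54, CG10254 -0.78 and Hrd3 -0.56, and their orientation means had opposite signs. None of these 4 passed between the lines.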

How the results depend on the processing

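The number of genes on the SL2 side was 7. In that fit 60.2% of all features passed on either side and 28.4% on the SL2 side. It was 4 in the flipped arrays alone, where 50.8% of all features passed on either side. Without pooling of variance it was 2, where 26.7% passed on either side. With 1 replicate left out it was 5 to 6, where 52.9% to 55.7% passed on either side. It was 5 to 7 in the other alternatives, where 51.6% to 61.2% passed on either side. The number on the Kc167 side was 0, where 31.8% of all features passed on that side. It was 1 in the flipped arrays alone (Usp8), where 50.8% passed on either side. After subtracting a local median of 24 clones that neighbour each other in printing order it was 1 (Rpn1). In that fit 59.1% passed on either side. With 1 replicate left out it was 0 to 2, again where 52.9% to 55.7% passed on either side. The 6-array fits with the dye term gave 6 and 0 genes both with the replicate block and with no replicate block. In these fits 61.2% and 60.8% of all features passed on either side. Rpn6 lost its call in both (limma adjusted p = 0.062 and 0.065). The number of genes that differed between orientations was 0, where 9.46% of all features did. It was 0 to 1 with 1 replicate left out, where 0.0139% to 13.8% of all features did. Of 178 alternative values of single genes, 154 kept their side of the threshold, 20 no longer passed and 4 newly passed, and none turned a call. Usp20-33 and Usp15-31 passed in all of theirs. Rpn3 passed in 10 of 16, with ratios from 0.12 to 0.26, and missed the threshold in each orientation alone. Without pooling of variance, Rpn2, Rpt5, Usp1, Rpn3 and Rpn6 did not pass. With the local median subtracted, Rpn3 and Rpn6 did not. The cause was not tested, except that leaving out arrays leaves fewer values. Read as natural logarithms, the largest fold would be 1.68 in place of 1.43. A variance trend on the number of values with robust estimation gave 6 and 0, without Rpn6 (limma adjusted p = 0.074). In that fit 60.8% of all features passed on either side. Robust estimation alone, chosen after seeing the data, gave 7 and 0, where 60.5% of all features passed on either side. The arrays limit small ratios most: 4 of the 11 genes lay below 0.2 in size.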
